A study of Mus musculus with 6 samples.

Results

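The cytotoxic lymphocyte genes described here are Gzmb, Gzma, Prf1, Nkg7, Ccl5, Ifng, Cd8a and Klrk1, which were taken by symbol, each counted once, as 8 of the 27933 genes in single-cell count tables of mouse 4T1 breast tumours. Their unique molecular identifiers (UMIs, tags that count each captured messenger RNA once) were followed in 14594 cell barcodes with at least 100 detected genes, and 407 of these barcodes held a UMI of at least 1 of the 8 genes. The libraries were made by Drop-seq, a droplet method in which cells are captured with barcoded beads. The first group, FVIO-MHT, has 3 libraries from tumours that received ferrimagnetic vortex iron oxide nanorings (FVIOs) in the tumour, at 0.1 mg per cm3 of its volume. The mice were then placed in a 365 kHz alternating magnetic field for 10 min, which is mild magnetic hyperthermia, and the tumours were taken after 24 hours. The second group has 3 libraries from tumours given PBS and taken at the same time. All tumours are of 4T1, a mammary carcinoma line, in Balb/c mice. One protocol text covers both groups in the labels, and it does not tell whether tumours of the PBS group were exposed to the field. Since no label ties the replicates to separate animals, every p-value refers to the spread among these libraries, and that spread may be technical.

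Cytotoxic lymphocytes are CD8 T cells, which recognise a target through the T cell receptor, and natural killer (NK) cells, which use receptors such as the one encoded by Klrk1. Both kill by releasing granules in which perforin opens the way for granzymes, proteases that start cell death in the target. They also secrete interferon gamma, which raises antigen presentation and macrophage activation, and chemokines that draw in further immune cells. In tumours, these genes are commonly read as a sign of killer cells at work.

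Among the 8 genes, Cd8a encodes a chain of the CD8 coreceptor and lies at chr6:71373427-71379173 on the plus strand of GRCm38, the assembly also called mm10. Klrk1, at chr6:129610323-129623864 on the minus strand, encodes NKG2D, the receptor for stress ligands on tumour cells. The granule proteases granzyme B and granzyme A are encoded by Gzmb, at chr14:56258838-56262260, and Gzma, at chr13:113093825-113100981, both on the minus strand. Prf1, the perforin gene, lies at chr10:61297833-61304680, and Nkg7, which encodes a granule membrane protein needed for efficient degranulation, at chr7:43437073-43438249, both on the plus strand. Ifng, at chr10:118441046-118445892 on the plus strand, overlaps the annotated gene Gm49751 on the same strand, which was not analysed here. Ccl5, the chemokine RANTES, lies at chr11:83525778-83530518 on the minus strand. All 8 are protein-coding, and Gzmb stands among close granzyme copies (Gzmc to Gzmg) whose reads the counting could share between them.

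The promoters of the 4 granule genes are shown because their products act in the same granule and their messages often shared barcodes. Each sequence is a window of 300 bases placed by the start of the gene in RefSeq (GRCm38.p6), and 7 of the 8 genes had an entry. Most of each window is upstream. The gene coordinates above are from another annotation, GENCODE M21. By those coordinates the Gzmb window lies wholly upstream of the gene and does not hold its start. Capitals mark matches on either strand to the TATA box TATAAA, the RUNX core TGTGGT, the T-box core GTGTGA and the AP-1 site TGACTCA.
Gzmb, chr14:56262285-56262584, minus strand: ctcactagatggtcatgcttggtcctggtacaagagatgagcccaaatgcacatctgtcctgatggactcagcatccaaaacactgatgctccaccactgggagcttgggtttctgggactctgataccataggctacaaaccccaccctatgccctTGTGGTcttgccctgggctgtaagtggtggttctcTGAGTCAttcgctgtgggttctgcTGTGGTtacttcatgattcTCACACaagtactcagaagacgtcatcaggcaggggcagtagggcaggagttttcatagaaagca
Gzma, chr13:113100932-113101231, minus strand: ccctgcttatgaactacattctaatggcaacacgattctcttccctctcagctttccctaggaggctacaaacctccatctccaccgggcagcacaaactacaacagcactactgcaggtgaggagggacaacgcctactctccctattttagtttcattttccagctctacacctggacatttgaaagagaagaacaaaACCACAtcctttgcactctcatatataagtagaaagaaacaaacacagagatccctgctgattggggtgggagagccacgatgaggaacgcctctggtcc
Prf1, chr10:61297586-61297885, plus strand: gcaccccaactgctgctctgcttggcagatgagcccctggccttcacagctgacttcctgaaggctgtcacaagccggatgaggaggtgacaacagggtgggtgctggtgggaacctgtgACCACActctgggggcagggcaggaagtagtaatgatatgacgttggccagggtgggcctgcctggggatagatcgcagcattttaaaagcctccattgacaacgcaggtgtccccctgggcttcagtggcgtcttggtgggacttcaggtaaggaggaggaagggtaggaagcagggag
Nkg7, chr7:43436888-43437187, plus strand: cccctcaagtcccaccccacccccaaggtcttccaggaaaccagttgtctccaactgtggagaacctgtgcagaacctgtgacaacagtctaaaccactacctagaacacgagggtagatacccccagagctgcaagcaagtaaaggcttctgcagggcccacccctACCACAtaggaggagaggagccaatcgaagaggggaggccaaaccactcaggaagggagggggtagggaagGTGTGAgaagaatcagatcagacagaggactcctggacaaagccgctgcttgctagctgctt

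The RUNX core was found in 5 of the 7 promoters, these 4 and Klrk1 but not Ifng or Cd8a, and 16.8% of 32851 RefSeq promoters of the same length hold it. Gzmb also held the T-box core, present in 14.5% of promoters, and the AP-1 site, present in 5.20%. Nkg7 held the T-box core as well, while TATAAA, present in 13.6%, was in none of the 4 but in Ifng. These matches describe letters in a window and were not tested for binding.

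Depth limits all that follows. Kept barcodes numbered 1577, 2636 and 4678 in FVIO-MHT replicates 1, 2 and 3, and 2955, 1977 and 771 in PBS replicates 1, 2 and 3, with 474589 to 2174876 UMIs per library and medians of 203 to 563 UMIs per barcode. FVIO-MHT replicate 1 stood apart, because 87.3% of its barcodes carried markers of neutrophils alone and none carried tumour epithelial markers alone. The neutrophil share was 49.8% and 2.52% in FVIO-MHT replicates 2 and 3, against 15.3%, 1.92% and 9.21% in PBS replicates 1, 2 and 3. PBS replicates 2 and 3 shared 33 kept barcodes, and one of the 8 genes was in 2 of them in replicate 2 and in 3 of them in replicate 3. No other pair of libraries shared more than 2. Intervals given here are 95% limits (Clopper-Pearson for shares, exact Poisson for counts) and cover counting error only. For a count of 0, a limit of 3 counts is used in place of these intervals unless an exact limit is named. Every 0 CPM in FVIO-MHT replicate 1 below thus allows up to 6.32 CPM, and every 0 share of its kept barcodes up to 0.190%.

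The 8 genes gave 294 UMIs in the FVIO-MHT libraries and 648 UMIs in the PBS libraries. Barcodes holding at least 1 of them made up 0.0634%, 3.00% and 1.03% of FVIO-MHT replicates 1, 2 and 3, against 4.13%, 4.65% and 8.43% of PBS replicates 1, 2 and 3. The mean share was 1.36% ± 1.495 in FVIO-MHT and 5.74% ± 2.35 in PBS libraries (SD, n = 3 each), and the groups did not overlap in this share. They did overlap in CPM (UMIs of the 8 genes per 1000000 UMIs of the library), at 4.21, 176 and 38.2 in FVIO-MHT, against 221, 115 and 304 in PBS. They also overlapped in the share of barcodes with at least 200 genes, at 0.301%, 4.67% and 1.08% in FVIO-MHT, against 4.63%, 4.38% and 10.6% in PBS. With every barcode thinned to 100 UMIs, which removes the difference in depth, the means were 0.645% ± 0.715 in FVIO-MHT and 2.50% ± 0.685 in PBS. The groups differ in cell makeup as described above, and in such sums fewer cells of a type and less RNA per cell cannot be told apart.

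**Figure D1:**
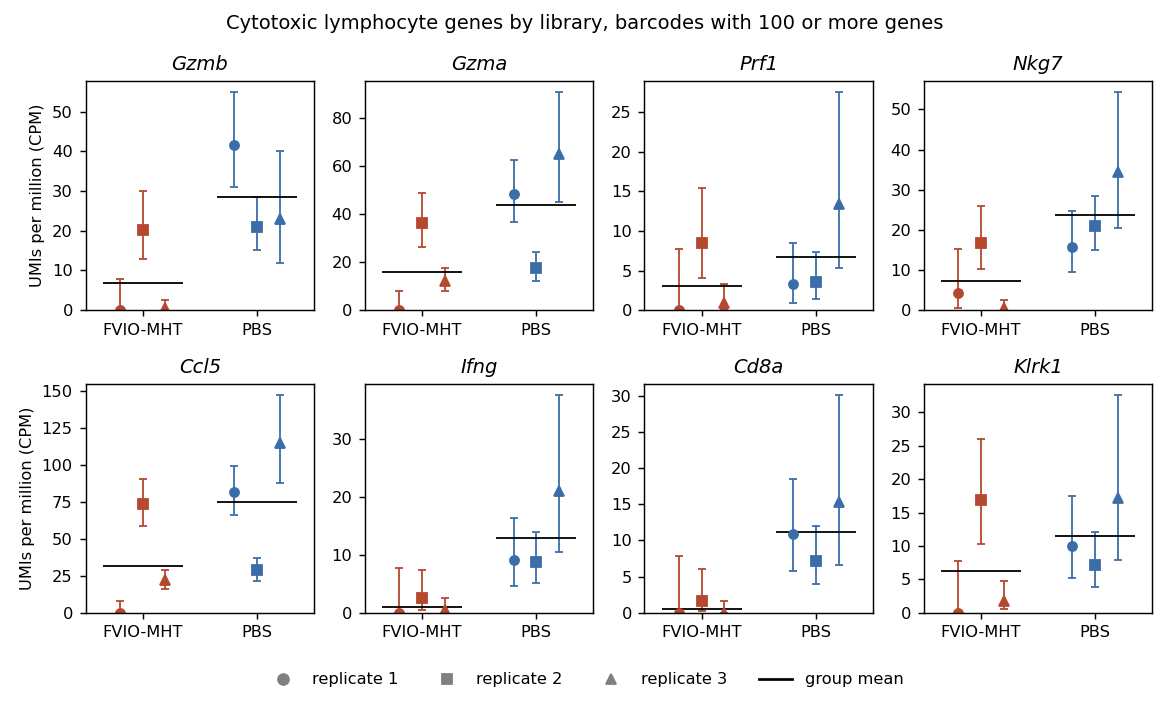
CPM (y axis, from 0; UMIs of the gene per 1000000 UMIs of the library) of each of the 8 genes in the 3 FVIO-MHT libraries (left) and the 3 PBS libraries (right), over barcodes with at least 100 genes, where points are libraries, bars are exact Poisson 95% intervals and black lines are group means. FVIO-MHT replicate 1 holds no UMI of any gene but Nkg7, and FVIO-MHT replicate 2 is the highest of its group for all 8 genes.

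Of the recognition genes, Cd8a had 0, 2 and 0 UMIs across FVIO-MHT replicates 1, 2 and 3, against 13, 14 and 8 UMIs in PBS replicates 1, 2 and 3. That is 0, 1.68 and 0 CPM (UMIs of the gene per 1000000 UMIs of the library) in FVIO-MHT, against 10.8, 7.18 and 15.3 CPM in PBS, and the groups did not overlap, with FVIO-MHT the lower. The limit of 6.32 CPM in FVIO-MHT replicate 1 is close to the lowest PBS value, and its exact Poisson interval, up to 7.77 CPM, covers that value. The 0 in FVIO-MHT replicate 3 allows up to 1.38 CPM, or 1.70 CPM by the exact interval.

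Klrk1 did not separate the groups. It had 0, 20 and 4 UMIs across FVIO-MHT replicates 1, 2 and 3 (0, 16.8 and 1.84 CPM), against 12, 14 and 9 UMIs in PBS replicates 1, 2 and 3 (10.00, 7.18 and 17.2 CPM). FVIO-MHT replicate 2 reached the level of the highest PBS library.

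Among the granule genes, Gzmb had 0, 24 and 1 UMIs across FVIO-MHT replicates 1, 2 and 3, against 50, 41 and 12 UMIs in PBS replicates 1, 2 and 3. The level was 0, 20.2 and 0.460 CPM in FVIO-MHT and 41.7, 21.02 and 22.9 CPM in PBS. The groups do not overlap, but by a narrow margin: the interval of FVIO-MHT replicate 2, 12.9 to 30.1 CPM, covers the lowest and the middle PBS library. Gzma had 0, 43 and 26 UMIs in FVIO-MHT (0, 36.2 and 12.0 CPM), against 58, 34 and 34 UMIs in PBS (48.3, 17.4 and 65.0 CPM). FVIO-MHT replicate 2 exceeded PBS replicate 2 here, so the levels overlap. By share of barcodes they did not: Gzma was found in 0, 0.531% and 0.321% of barcodes in FVIO-MHT, against 0.778%, 0.759% and 1.82% in PBS.

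Prf1, the perforin gene, had 0, 10 and 2 UMIs across FVIO-MHT replicates 1, 2 and 3 (0, 8.42 and 0.920 CPM), against 4, 7 and 7 UMIs in PBS replicates 1, 2 and 3 (3.33, 3.59 and 13.4 CPM). FVIO-MHT replicate 2 lay above both PBS replicates 1 and 2, and so does the limit of the 0 in FVIO-MHT replicate 1. Nkg7 was the only one of the 8 found in FVIO-MHT replicate 1, with 2 UMIs in 1 barcode. It had 20 and 1 UMIs in the libraries of FVIO-MHT replicates 2 and 3, against 19, 41 and 18 UMIs in PBS replicates 1, 2 and 3. In CPM the FVIO-MHT libraries were at 4.21, 16.8 and 0.460 and the PBS libraries at 15.8, 21.02 and 34.4, so FVIO-MHT replicate 2 fell within the PBS range.

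Of the secreted signals, Ifng had 0, 3 and 1 UMIs across FVIO-MHT replicates 1, 2 and 3, against 11, 17 and 11 UMIs in PBS replicates 1, 2 and 3, which is 0, 2.53 and 0.460 CPM in FVIO-MHT and 9.17, 8.72 and 21.02 CPM in PBS. Again the groups did not overlap, with FVIO-MHT the lower. Ccl5 had the most UMIs of the 8, with 0, 87 and 48 UMIs in FVIO-MHT (0, 73.3 and 22.1 CPM) and 98, 56 and 60 UMIs in PBS (81.7, 28.7 and 115 CPM). Its groups overlap, since FVIO-MHT replicate 2 lay above PBS replicate 2.

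By level, then, 3 of the 8 genes (Cd8a, Gzmb and Ifng) had no FVIO-MHT value at or above the lowest PBS value, a pattern shown by 7.02% of the 17741 genes with a UMI and by 9.56% of the 9384 genes that entered the test below. By share of barcodes it was 4 of the 8, with Gzma added, against 13.6% of the genes with a UMI and 19.2% of the genes tested. Among barcodes with at least 200 genes, Cd8a alone of the 8 kept the groups apart, a pattern then shown by 14.4% of the genes with a UMI and 22.4% of the genes tested. In those barcodes Gzmb was in 0%, 0.953% and 0.0430% in FVIO-MHT, against 1.48%, 0.821% and 1.66% in PBS, and FVIO-MHT replicate 2 also exceeded a PBS library for Gzma and Ifng. A test for difference was made with edgeR on counts summed per library, over all genes. It called 0 of 9384 genes (0%) at an adjusted p under 0.05, with 498 at an unadjusted p under 0.05. DESeq2 called 139 of the 2811 genes to which its filter on the mean count left an adjusted p (4.94%), and none of the 8 genes was among those 2811. With that filter off, an alternative chosen after seeing the data, it called 30 of 9359 genes (0.321%) and none of the 8. Of the 6 of these genes in that fit, Ifng came nearest, with a DESeq2 adjusted p of 0.0637. It had passed the filter on low counts through its PBS libraries alone.

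Prf1 and Cd8a did not pass the filter on low counts, which left 6 genes in the test. The filter asks for 8.38 CPM in 3 libraries, and Ifng reached it in its PBS libraries alone. With its FVIO-MHT libraries below that level, Ifng entered only because its PBS libraries were high, so its direction is no separate result. Ifng had the largest log2 fold change, -3.27 ± 0.90 (SE; edgeR, adjusted p = 0.840, unadjusted p = 0.00609). Gzmb followed at -1.79 ± 1.09 and Nkg7 at -1.46 ± 0.98. Gzma was at -1.21 ± 0.88, Ccl5 at -1.08 ± 0.97 and Klrk1 at -0.52 ± 0.95, and these 5 genes had edgeR adjusted p of 0.859 to 0.973. Of all genes tested, 51.3% had negative values and the median was -0.022. Without the filter, edgeR gave Cd8a -3.94 ± 1.21 (adjusted p = 0.456) and Prf1 -0.74 ± 1.10 (adjusted p = 0.912). Without FVIO-MHT replicate 1, the library that stood apart, the log2 fold changes by edgeR were -1.56 for Gzmb, -3.16 for Ifng and -0.62 for Ccl5, with 0 genes called.

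The cells that carried the 8 genes were described next through the genes of T cells. The T cell receptor signals through the CD3 complex, and a UMI of Cd3d, Cd3e or Cd3g was taken as the sign of a T cell; the receptor's constant-region genes were not analysed here. Such barcodes made up 0.317%, 1.29% and 0.278% of FVIO-MHT replicates 1, 2 and 3, against 5.01%, 1.57% and 3.11% of PBS replicates 1, 2 and 3. The means were 0.628% ± 0.573 in FVIO-MHT and 3.23% ± 1.72 in PBS (SD, n = 3 each), a difference of -2.60 percentage points, with no overlap between the groups as counted. An exact permutation test gave two-sided p = 0.1, the smallest that 3 against 3 libraries allow. The groups overlapped among barcodes with at least 200 genes, where FVIO-MHT replicate 2 was at 2.10% and PBS replicate 2 at 1.37%, and where at least 2 CD3 UMIs were required, at 0.531% against 0.303% in the same libraries (exact permutation p = 0.2 both times). PBS replicate 1 stood apart in Ccr7, a homing receptor of cells such as naive T cells and dendritic cells, at 377 CPM against 3.59 and 5.73 CPM in PBS replicates 2 and 3. It also stood apart in Icos, at 357 CPM against 15.4 and 89.8 CPM. Of the 60 barcodes with B or plasma cell markers alone, 59 were in PBS replicate 1, and which cells held its Ccr7 was not tested.

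A CD3 gene was detected in 41 of the 407 barcodes that held one of the 8 genes, or 10.1% (7.33 to 13.4%), and in 1.51% of the 14187 that held none. Median depth was 307 UMIs with and 248 UMIs without. After thinning to 100 UMIs the shares were 3.68% with and 0.709% without. The share was also higher within 4 libraries, as counted and after thinning: 8.86% with against 1.06% without in FVIO-MHT replicate 2, 11.5% against 4.73% in PBS replicate 1, 14.1% against 0.955% in PBS replicate 2 and 10.8% against 2.41% in PBS replicate 3. In FVIO-MHT replicate 3, 0 of 48 such barcodes held a CD3 gene (exact upper limit 7.40%), and 13 of its 4630 other barcodes did (0.281%). That limit covers the share in the others, so no difference can be read from this library.

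Pooled over the 6 libraries, Cd8a had the highest share of barcodes with CD3, with a CD3 gene in 14 of 34 barcodes (41.2%), followed by Prf1 in 7 of 23 (30.4%) and Gzmb in 18 of 69 (26.1%). Ifng had it in 6 of 28 barcodes (21.4%), 5 of them in PBS replicate 2, Nkg7 in 13 of 65 (20%) and Gzma in 9 of 81 (11.1%). Klrk1 with 3 of 52 (5.77%) and Ccl5 with 7 of 195 (3.59%) were lowest. These shares rest on small counts and on libraries that differ in their CD3 share, many neighbours in the order have overlapping intervals, and the order was not tested. It changed within PBS replicate 1, where Cd8a had CD3 in 2 of 13 barcodes (15.4%), below Gzmb at 18.5%, Nkg7 at 21.4% and Prf1 at 66.7% of 3. In that library Ccl5 barcodes had CD3 in 3.92% of cases and those without Ccl5 in 5.03%.

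**Figure D2:**
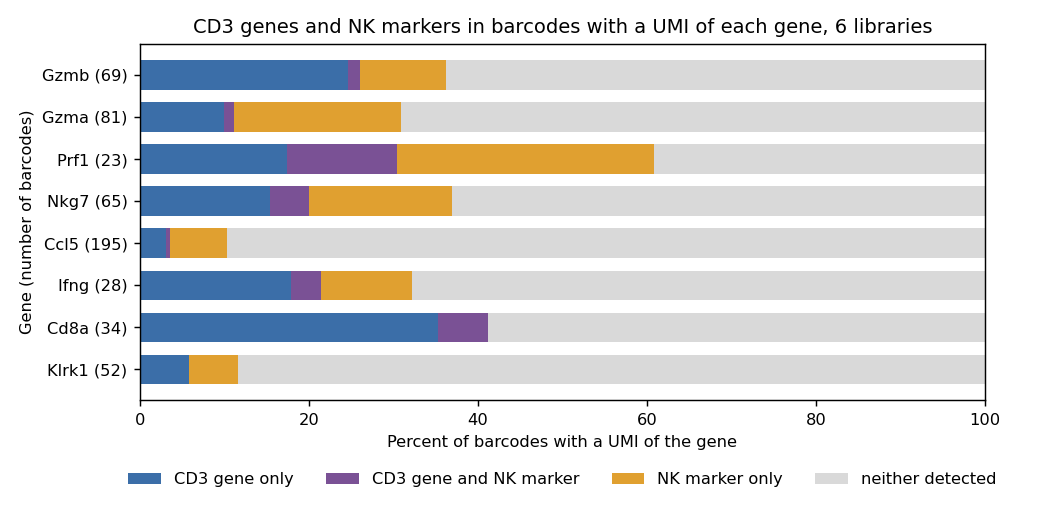
Percent of barcodes with a UMI of each gene (x axis, 0 to 100%) that also held a CD3 gene, an NK marker, both or neither, pooled over the 6 libraries, with the number of barcodes beside each gene. Cd8a barcodes held a CD3 gene in 41.2% of cases and no NK marker without one, and 58.8% of them held neither, against 89.7% of Ccl5 and 88.5% of Klrk1 barcodes.

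Markers of NK cells were fixed as Ncr1, Klrb1c, Klra4, Klra7, Klra8, Klre1, Eomes and Klrc2. At least 1 of them was found in 32 of the 407 barcodes (7.86%) and in 31 of the 14187 others (0.219%), or in 2.87% and 0.0693% after thinning to 100 UMIs. The share among the 407 was 10.1% and 8.33% in FVIO-MHT replicates 2 and 3, against 4.92%, 7.61% and 10.8% in PBS replicates 1, 2 and 3. Klre1, an NK cell receptor gene, was the clearest case, since 10 of the 13 barcodes with it in the data also held Gzma. Of the 407 barcodes, 36 held a CD3 gene only, 27 an NK marker only, 5 both and 339 neither.

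A wider list of T cell genes, of which 37 were in the count tables, touched more of these barcodes. At least 1 was present in 222 of the 407 (54.5%) and in 16.4% of the others, or in 32.5% and 8.74% after thinning. As counted and after thinning, the share was higher in each library that held more than 1 such barcode: 48.1% with and 16.7% without in FVIO-MHT replicate 2, and 25% and 7.73% in FVIO-MHT replicate 3. PBS replicate 1 had 78.7% and 39.6%, PBS replicate 2 had 48.9% and 9.92%, and PBS replicate 3 had 47.7% and 18.0%. Icos, a costimulatory receptor of activated T cells, was the most frequent when libraries were pooled, in 50 of the 407 barcodes (12.3%) against 1.90% of the others. By library it was in 10.1% and 2.08% of such barcodes in FVIO-MHT replicates 2 and 3, against 20.5%, 8.70% and 12.3% in PBS replicates 1, 2 and 3, so that 25 of the 50 were in PBS replicate 1, and it was first in PBS replicate 3 alone. Il7r, the interleukin 7 receptor, was in 40 (9.83%) and Ms4a4b, a membrane protein of T and NK cells, in 38 (9.34%). Pdcd1, which encodes the checkpoint receptor PD-1, had the highest ratio of the T cell genes in the plot, found in 16 of the 407 (3.93%) and 14 of the 14187 others (0.0987%). Cd8b1, the second chain of CD8, was in 14 (3.44%) against 15 (0.106%). The helper gene Cd4 was in 5 of the 407 and the regulatory T cell gene Foxp3 in 2.

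**Figure D3:**
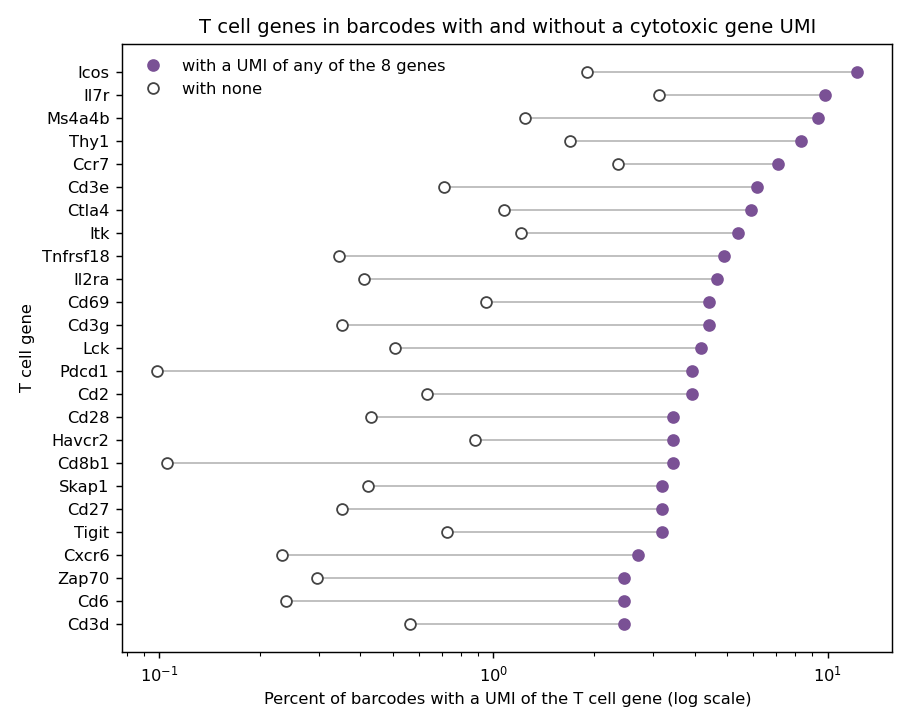
Percent of barcodes with a UMI of each T cell gene (x axis, log scale) among the 407 barcodes with a UMI of the 8 cytotoxic lymphocyte genes (filled) and the 14187 without (open), as counted and pooled over 6 libraries, for the T cell genes reported here that were found in at least 10 of the 407. Pooled in this way, Icos is highest at 12.3% and Pdcd1 shows the widest gap on this axis, 3.93% against 0.0987%.

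The T cell genes and NK markers found with each gene overlapped, and Ms4a4b, Thy1 and Icos recurred. The counts are pooled over libraries and were not thinned. Among barcodes with one of the 8 genes, Icos and Ms4a4b were most frequent in PBS replicate 1. Gzmb came most often with Icos, in 22 of its 69 barcodes (31.9%), then with Thy1 in 15, Cd3e in 13, and Il2ra, the interleukin 2 receptor alpha chain of activated T cells, in 12. Cd8a came with Cd3e and Ms4a4b in 7 of its 34 barcodes each, and with its partner chain Cd8b1 in 6 (17.6%), against 0.158% of barcodes without Cd8a. Prf1 came with Cd3g and Thy1 in 6 of 23 barcodes each, and with the NK receptor genes Ncr1 and Klre1 in 4 each. Nkg7 came with Ms4a4b and Thy1 in 14 of 65 barcodes each, with Ctla4 in 13 and with Pdcd1 in 9. Gzma came with Ms4a4b in 11 of 81 barcodes and with Klre1 in 10. Ifng came with Cd3g in 5 of 28 barcodes and with Pdcd1 and Cd28 in 4 each. Klrk1 came with Icos in 7 of 52 barcodes, and Ccl5 with Ms4a4b in 16 of 195 (8.21%).

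The 8 genes also shared barcodes with each other. Of the 407 barcodes, 331 held 1 of the genes, 37 held 2, 21 held 3 and 18 held 4 or more. A CD3 gene or an NK marker was found in 35 of the 331 with 1 gene, and in 33 of the 76 with at least 2. Depth differs between barcodes, and neither these counts nor those of the pairs below were thinned. Barcodes with at least 2 numbered 0, 18 and 4 in FVIO-MHT replicates 1, 2 and 3, against 17, 22 and 15 in PBS replicates 1, 2 and 3, so FVIO-MHT replicate 2 was like the PBS libraries in this. Prf1 was joined by Nkg7 in 12 of its 23 barcodes (52.2%), against 0.364% of barcodes without Prf1. Ifng was joined by Nkg7 in 11 of 28 (39.3%), Gzma by Ccl5 in 29 of 81 (35.8%) and Gzmb by Nkg7 in 18 of 69 (26.1%). Ccl5, found in the most barcodes, was joined by Gzma in 29 of its 195 (14.9%), by Nkg7 in 13 (6.67%) and by Gzmb in 10 (5.13%). The phi coefficient between 2 genes' presence (0 for none, 1 for full overlap) was averaged over libraries. It was highest for Gzma with Nkg7 (0.301), Gzmb with Nkg7 (0.283) and Gzmb with Gzma (0.250). It was 0.216 for Ccl5 with Gzma, and at most 0.132 for Klrk1 with any other of the 8 that had enough barcodes.

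A few barcodes held much of the signal. One barcode of PBS replicate 1 had 27 UMIs of Gzma and 18 of Gzmb, with Cd3d, Cd3e, Cd3g, Cd8b1 and Pdcd1 detected, and gave 46.6% of that library's Gzma UMIs. In PBS replicate 2, 1 barcode with 18 UMIs of Gzmb (43.9% of the library's) held the NK genes Ncr1 and Klre1 and no CD3 gene. In PBS replicate 3, 1 barcode with 15 UMIs of Gzma and 8 of Ccl5 held Klra7, Klre1 and Eomes. FVIO-MHT replicate 2 had 1 barcode with 17 UMIs of Gzma and 4 of Nkg7, with Lck, Zap70 and Thy1 but no CD3 gene or NK marker. The strongest carriers thus included barcodes with T cell genes and barcodes with NK genes.

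Other cell types bear on how a single UMI is read. In 2261 barcodes with markers of tumour epithelium alone, cells that should lack these genes, Prf1, Nkg7 and Klrk1 were found in none (up to 0.133%), although the median depth was 962 UMIs. Cd8a was found in 1 (0.0442%), Gzma in 2 (0.0885%), Ifng in 3 (0.133%) and Gzmb in 5 (0.221%). Gzmb was in 0 of 95 and 0 of 1007 such barcodes in FVIO-MHT replicates 2 and 3 (up to 3.16% and 0.298%), against 1.35%, 0.128% and 0.641% in PBS replicates 1, 2 and 3, and no difference between the groups can be read from these counts. In PBS replicate 1 that was above the 0.914% of all its barcodes as counted, and below it after thinning, at 0.0732% against 0.407%. Ccl5 was in 31 (1.37%) of the tumour barcodes as counted and in 0.0988% after thinning, against thinned shares of 0.300 to 1.42% over all barcodes in the 5 libraries with Ccl5.

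Ccl5 and Klrk1 UMIs were also found in barcodes of other classes. Of 480 barcodes with markers of macrophages and monocytes alone, 15 held Ccl5 (3.13%, 1.76 to 5.10%) and 7 held Klrk1 (1.46%), while Prf1, Nkg7, Ifng and Cd8a were found in none (up to 0.625%). After thinning these shares were 0.751% for Ccl5 and 0.201% for Klrk1. Both lie above those of the tumour barcodes and within the range of the libraries' thinned shares over all kept barcodes. For Klrk1 these library shares were 0.159 to 0.235% in FVIO-MHT replicate 2 and the 3 PBS libraries. They were 0.0147% in FVIO-MHT replicate 3 and 0 in FVIO-MHT replicate 1. Because FVIO-MHT replicate 3 gave 237 of the 480 macrophage barcodes, the pooled share is not matched to the libraries with more Klrk1. The macrophage shares were uneven between libraries, since 5 of the 7 Klrk1 barcodes were from PBS replicate 2. Ccl5 was in 0 of 237 macrophage barcodes in FVIO-MHT replicate 3 (up to 1.27%). It was in 8 of 118 in PBS replicate 2 and 4 of 27 in PBS replicate 3. Expression by macrophages was not tested. Ccl5 was also in 3 of 7 barcodes with dendritic cell markers alone. In 3369 barcodes with neutrophil markers alone at a median of 235 UMIs, 26 held any of the 8 genes (0.772%), and 19 of these were in FVIO-MHT replicate 2 and 0 of 1377 in FVIO-MHT replicate 1 (up to 0.218%). Barcodes with 2 of the CD3 genes and no other class's markers numbered 24, of which 5 held Gzmb, 4 Nkg7, 3 Prf1 and 0 Ccl5 (up to 12.5%). All 5 barcodes with 2 NK markers and no other class's markers held Nkg7, and 3 held Gzma.

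Within CD3-positive barcodes the 8 genes could be compared in 4 libraries with at least 20 such barcodes. At least 1 of the 8 was found in 7 of 34 CD3-positive barcodes in FVIO-MHT replicate 2 (20.6%, 8.70 to 37.9%), against 14 of 148 (9.46%), 13 of 31 (41.9%) and 7 of 24 (29.2%) in PBS replicates 1, 2 and 3. FVIO-MHT replicate 2 lay inside the PBS range. In FVIO-MHT replicates 1 and 3 it was 0 of 5 and 0 of 13, with exact upper limits of 52.2% and 24.7%. The limit of 24.7% lies above the share in PBS replicate 1 and below those in PBS replicates 2 and 3. edgeR on the summed counts, 1 library against 3 with the lone FVIO-MHT library assumed to vary like the others, compares that library with the PBS libraries and not the treatments. It called 0 of 643 genes (0%), with 30 at an unadjusted p under 0.05 and 0 called by DESeq2. The 4 genes tested had log2 fold changes of -0.22 for Gzmb, -1.55 for Gzma, -1.73 for Nkg7 and -1.12 for Ccl5 in that library over PBS.

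Genes that work with these 8 were read from lists, and edgeR called none of them over all barcodes. Of the T cell genes, 16 were tested, 13 had negative log2 fold changes and the median was -1.41. Icos, which had the most UMIs of those with a negative value, had 0, 53.9 and 12.9 CPM in FVIO-MHT replicates 1, 2 and 3, against 357, 15.4 and 89.8 CPM in PBS replicates 1, 2 and 3 (log2 fold change -2.61 ± 1.26), and Il7r was at 0.33 ± 0.95. None of the 8 NK markers had counts enough to be tested. The granule pathway had 10 genes tested and a median of 0.34. Its gene with most UMIs, Srgn, the granule proteoglycan that neutrophils and macrophages also make, was at 6100, 2820 and 321 CPM in FVIO-MHT, against 1310, 378 and 1726 CPM in PBS (2.26 ± 1.25). Lamp1, a lysosomal membrane protein gene used as a sign of degranulation, was at 0.61 ± 0.50, and Ctsc, whose protease activates granzymes, at 0.060 ± 0.59. The granzyme Gzmc was at 0, 26.1 and 0.920 CPM in FVIO-MHT, against 5.83, 55.9 and 59.3 CPM in PBS.

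The remaining lists had medians near or above 0, apart from the ligands of Klrk1. The 7 transcription factors tested had a median of 0.87, with Zeb2 at 2.75 ± 1.11, Id2 at 1.88 ± 0.79 and Bhlhe40 at 0.87 ± 0.66. The 12 receptors and adaptors had a median of 0.41, with the signalling adaptors Fcer1g at 3.05 ± 1.08 and Tyrobp at 2.48 ± 0.81 and the Fc receptor Fcgr3 at 2.68 ± 0.95, all shared with myeloid cells. The chemokines Ccl3 and Ccl4, which share receptors with Ccl5, were at 4.41 ± 1.77 and 3.17 ± 1.18, the receptor Ccr1 was at 2.98 ± 1.15, and this list had a median of 2.98 over 5 genes. Ccl3 was highest in FVIO-MHT replicate 1, the library with most neutrophil barcodes, at 9023, 1539 and 95.2 CPM in FVIO-MHT replicates 1, 2 and 3, against 667, 64.1 and 269 CPM in PBS replicates 1, 2 and 3. The part of cell makeup in these differences was not tested. The 12 genes of the interferon gamma receptor and its targets had a median of 0.014, with Irf1 at -0.28 ± 0.70 and Cxcl10 at 0.47 ± 0.72. Of the ligands of Klrk1, H60b was at -0.65 ± 0.64 and Ulbp1 at -0.13 ± 0.63. All values in this paragraph after the medians are edgeR log2 fold changes with SE unless given in CPM, and none passed the adjusted threshold.

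**Figure D4:**
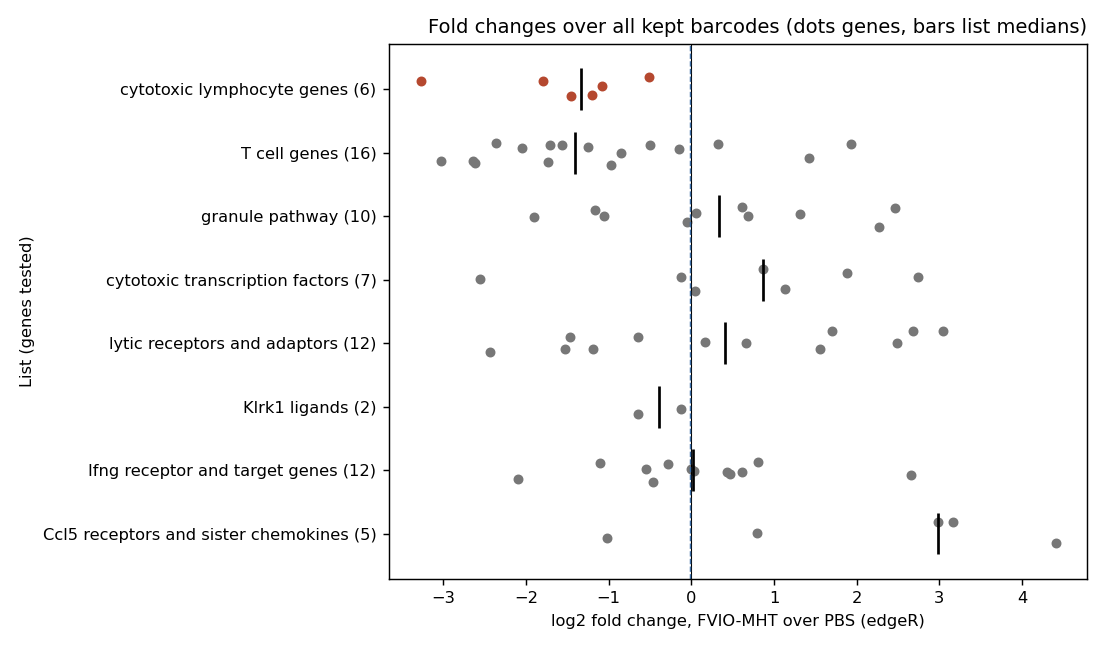
edgeR log2 fold changes of FVIO-MHT over PBS (x axis) for the genes of each list that passed the filter on low counts (number in brackets), where dots are genes, black bars list medians and the dashed line the median of all 9384 genes tested, -0.022. Of the cytotoxic lymphocyte genes Ifng lies farthest left at -3.27 and passed the filter only through its PBS libraries, and no gene in the plot passed the adjusted threshold.

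The genes most like the set in where they were detected were found by the phi coefficient, a correlation of presence and absence over barcodes, averaged over libraries with at least 10 positive barcodes of both. Over 10208 genes compared, those most like the presence of any of the 8 were Xcl1, a chemokine of NK and CD8 T cells (phi 0.192 over 2 libraries), Gzmc (0.183 over 2) and Klrd1, the CD94 receptor gene (0.166 over 2). AW112010 (0.150 over 5), Sh2d2a (0.142 over 2), Txk (0.142 over 3), Tnfrsf9 (0.139 over 4), Serpinb6b (0.136 over 5), P2ry10 (0.129 over 5) and Satb1 (0.128 over 5) came next. Outside the 8 genes, Sh2d2a was closest to Gzmb (0.186), Sytl3 to Gzma (0.197), Gzmc to Nkg7 (0.230) and Klrd1 to Cd8a (0.201). Each of these values rests on 2 libraries. Serpinb6b was closest to Klrk1 (0.108) and Gm15056 to Ccl5 (0.183), each over 3 libraries. Gzmb, Gzma, Nkg7, Cd8a, Klrk1 and Ccl5 each had a higher value with another of the 8, such as 0.301 for Gzma with Nkg7. Prf1 and Ifng had too few barcodes for this measure. These values are low and describe sparse counts, and depth differs between barcodes.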

How the data were processed

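UMI counts per gene and barcode in 6 Drop-seq libraries (3 FVIO-MHT, 3 PBS) were used as deposited; per the submitters' processing notes the authors aligned reads with STAR 2.7.2b to mm10. How UMIs were counted, on which annotation and strand, and how the 5000 barcodes per library were chosen is not stated in the labels or files. Per-library totals were 678337 to 2207534 UMIs. After 65 rows that repeat a symbol with identical counts were dropped, 27933 genes remained (27691 found in GENCODE M21). Barcodes with at least 100 detected genes were kept, doublets were not removed, and no cluster names were used: a barcode was put in a cell class by at least 2 of its markers.

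The members, gene lists and markers were chosen with earlier results of these data known. Of the CD3 and T cell receptor genes, 3 of 6 were analysed. All 8 members are described in every library; from the other lists, genes past the threshold are named, and otherwise the 3 with most UMIs, plus examples that were chosen after their values were seen (Gzmc, and T cell and NK genes in shared barcodes). Some listed genes count towards list totals and medians but are not reported here by name.

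Counts were summed per library and tested in R 4.3.3 with edgeR 4.0.16 (TMM, filterByExpr, quasi-likelihood test, threshold of 0.05 on the p adjusted by Benjamini-Hochberg), over all kept barcodes and over barcodes with a CD3 UMI in libraries with at least 20 of them. The SE is the fold change over the square root of F. DESeq2 1.42.0 and the other settings in the closing section were alternatives. Shares were thinned to 100 UMIs as the expected share under draws without replacement. CPM is relative to all UMIs of a library's kept barcodes.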

Additional observations from a re-analysis of the deposited data

How the results depend on the processing

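The 6 fold changes of the cytotoxic lymphocyte genes over all barcodes were recomputed 82 times; 81 kept their direction and stayed short of the threshold, with adjusted p of 0.0637 (Ifng, DESeq2 without its filter) to 1.00. Klrk1 reversed to 0.077 without FVIO-MHT replicate 3. Without FVIO-MHT replicate 2 the edgeR log2 fold changes were -5.88 for Gzmb, -4.67 for Ifng, -3.58 for Nkg7, -2.81 for Klrk1, -2.47 for Ccl5 and -2.42 for Gzma, while without FVIO-MHT replicate 3 Gzmb was at -1.08 and Nkg7 at -0.70, and without FVIO-MHT replicate 1 Ccl5 was at -0.62 and Klrk1 at -0.28, so the sizes rest on single libraries. Without PBS replicate 3 Ccl5 was at -0.67 and Klrk1 at -0.21, and without PBS replicate 2 Klrk1 was at -0.83. The cause was not tested. Over all barcodes edgeR called 0 genes under each alternative (range 0 to 0 with 1 library left out), and DESeq2 called 139, or 30 without its filter on the mean count. In CD3-positive barcodes edgeR called 9 genes without the filter on low counts and 0 to 25 with 1 PBS library left out (16 without PBS replicate 1, 25 without PBS replicate 3); none was one of the 8 genes. FVIO-MHT replicate 2 is the lone library of its group there, so it cannot be left out, and with 2 CD3 UMIs required it has too few barcodes to be used. Replicate numbers are shared by the groups, but no label says that they pair the samples. Deviations from the group means correlated at 0.304, 0.0485 and -0.0238 between same-numbered libraries, against -0.340 to 0.422 between the others. With so few libraries, which differ in cell makeup, these values cannot tell whether the numbers pair the samples. With the replicate block edgeR called 0 genes (293 at an unadjusted p under 0.05). No paired analysis was possible in the CD3-positive barcodes because the libraries used share 1 number. The difference in the share of CD3-positive barcodes stayed negative, from -3.43 to -0.663 percentage points, and from -3.43 to -1.71 with 1 library left out, but the groups overlapped with 200 genes or 2 CD3 UMIs required (exact permutation p = 0.2). The share of the 407 barcodes with a CD3 gene was 15.4% where at least 2 UMIs of the 8 genes were required, 3.68% after thinning, and 8.89 to 11.4% with 1 library left out. Leaving out the barcodes shared by libraries, chosen after seeing the data, changed no call; thinning and leaving out libraries were also chosen then for the share of the 407 barcodes with a CD3 gene. At most 2 barcodes exceeded 20% mitochondrial UMIs, so that alternative tests little. Depth limits what 0 UMIs can show: up to 6.32 CPM in FVIO-MHT replicate 1, against 1.38 CPM in FVIO-MHT replicate 3.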
